A study of Mus musculus with 2 samples.

Results

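Transcripts of 9 receptors that raise or restrain the activation of T cells, NK cells and innate lymphoid cells (ILCs) were followed across the lymphocytes of the mouse adrenal gland. These receptors, 9 of the 32285 genes counted, were chosen by name, with earlier results of these data known. They were Cd28, Icos and Cd226, which costimulate, and Ctla4, Pdcd1, Lag3, Cd160, Tigit and Cd96, which are grouped here as inhibitory. The effect of a receptor in any of these cells was not tested. The data were droplet-based single-cell RNA sequencing counts of CD45+ cells sorted from adrenal glands of untreated C57BL/6 mice aged 7 weeks, with 1 library from females and 1 from males. The number of animals behind each library is not given in the sources used here, and living cells were selected by exclusion of the dye DAPI. After filters, 3693 female and 2447 male cells were analysed, and Ptprc, which encodes CD45, was detected in 83.3% and 76.1% of them.

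T cells and NK cells integrate antigen or stress signals with a second layer of receptors that lower or raise the threshold of activation. CD28 and CTLA-4 share the ligands CD80 and CD86, ICOS binds ICOS ligand, and PD-1 binds PD-L1 and PD-L2. CD226, TIGIT and CD96 compete for nectin-family ligands such as CD155, encoded by Pvr, while LAG-3 binds MHC class II and CD160 binds the herpesvirus entry mediator encoded by Tnfrsf14.

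Lymphocytes were gated on canonical markers other than the 9 receptors, and the unique molecular identifiers (UMIs) of a gate and library were summed and scaled to the gate's total as CPM (counts-per-million). CD8 T cells comprised a naive-state gate of 110 female and 43 male cells and an experienced gate of 64 and 38, according to whether naive markers such as Ccr7 and Lef1 or experienced markers such as Ccl5, Nkg7 and Cxcr3 gave more UMIs. T cells with neither CD8 nor Cd4 nor Trdc UMIs are called coreceptor-undetected, which says that no such UMI was seen and does not name a cell type, and they comprised 51 and 22 naive-state and 238 and 120 experienced cells. The Cd4+ gate held 61 and 30 T cells, of which 51 and 23 carried a single Cd4 UMI, and a Cd4 T cell in which no Cd4 UMI was captured falls in the coreceptor-undetected gates. NK-type cells were divided into an ILC1-like gate of 215 and 95 cells, carrying Itga1, Cd200r1, Tmem176b and Cxcr6, and a conventional NK gate of 471 and 201 cells, carrying Eomes, Klra4 and Klra8. The ILC2-like gate held 40 and 31 cells, gamma delta T cells numbered 21 and 15, and Foxp3+ T cells 9 and 3, and the last pair of gates, with under 50 cells each, is described mainly by UMI counts and was left out of the orders of levels.

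The libraries held 16218309 female and 9512670 male UMIs, with medians of 3432 and 2777 UMIs per barcode, and 2 barcode sequences occurred in both. Median depths of the lymphocyte gates lay between 2051.5 and 5432 UMIs per cell. The CD8 and ILC2-like gates were led by their own markers. Gm36723, which is not a gate marker, led the ILC1-like gate in both libraries, and Cd200r1 and Tmem176b were among its 10 leading genes. The gating itself fixed the place of such markers in part, since Cd8a, Cd8b1, Itga1, Cd200r1 and Tmem176b were among the genes used. Among the genes that led the coreceptor-undetected experienced gate were Il4, Cd40lg and the gamma-chain constant gene Tcrg-C2, although Trac was among them too. The cell-cycle genes Hist1h1b and Top2a were among the 10 leading genes of this gate in the male library and not in the female one, and their part in the comparisons of this gate between the libraries was not tested. Pclaf, Top2a and Tcrg-C2 were among the 10 leading genes of the Cd4+ gate in the male library alone. Pclaf and Cenpw were among those of the CD8 experienced gate in the female library alone. Their part in the comparisons of these gates between the libraries was not tested either. Hemoglobin transcripts led the conventional NK gate in part, and they came from 4 female and 1 male cells with over 1 hemoglobin UMI. In the ILC2-like gate 8 of 40 female and 7 of 31 male cells held over 1 hemoglobin UMI. With 1 library per sex no test between conditions was possible, intervals are exact 95% limits that cover counting error only, and sex and library cannot be told apart. Counts are of transcript 3' ends, so each receptor was compared across gates and not with another receptor.

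All 9 receptors are single protein-coding genes without a same-strand neighbour overlapping them in the GENCODE annotation of GRCm38. Cd28 (chr1:60716800-60773359), Ctla4 (chr1:60887000-60915832) and Icos (chr1:60977927-61000320) are 3 consecutive protein-coding genes within 283521 bases of chromosome 1, all on the plus strand, and Pdcd1 lies on the same chromosome at 94038305-94052553. Cd160 (chr3:96798763-96829351), Lag3 (chr6:124904361-124911705), Tigit (chr16:43648867-43664146) and Cd96 (chr16:46035657-46120251) lie on the minus strand, as does Pdcd1, and Cd226 lies on the plus strand of chromosome 18 at 89176967-89272229.

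Each receptor had its own order over the 8 gates with at least 50 cells, and the ILC1-like cells stood at the top of that order for Cd226, Lag3, Cd160 and Cd96, whereas Cd28 and Icos were mostly a matter of T cells and, for Icos, ILC2-like cells. The order was taken from the mean CPM of both libraries over those of these gates with at least 20 UMIs, and many neighbours in it did not differ beyond their intervals. Ctla4 and Tigit reached 20 UMIs in no lymphocyte gate and could not be ordered. Of all UMIs of a receptor, the 9 lymphocyte gates held between 65.9% and 87.5% in either library for every receptor but Ctla4, for which they held 33.3% of 78 female and 41.4% of 29 male UMIs.

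**Figure D1:**
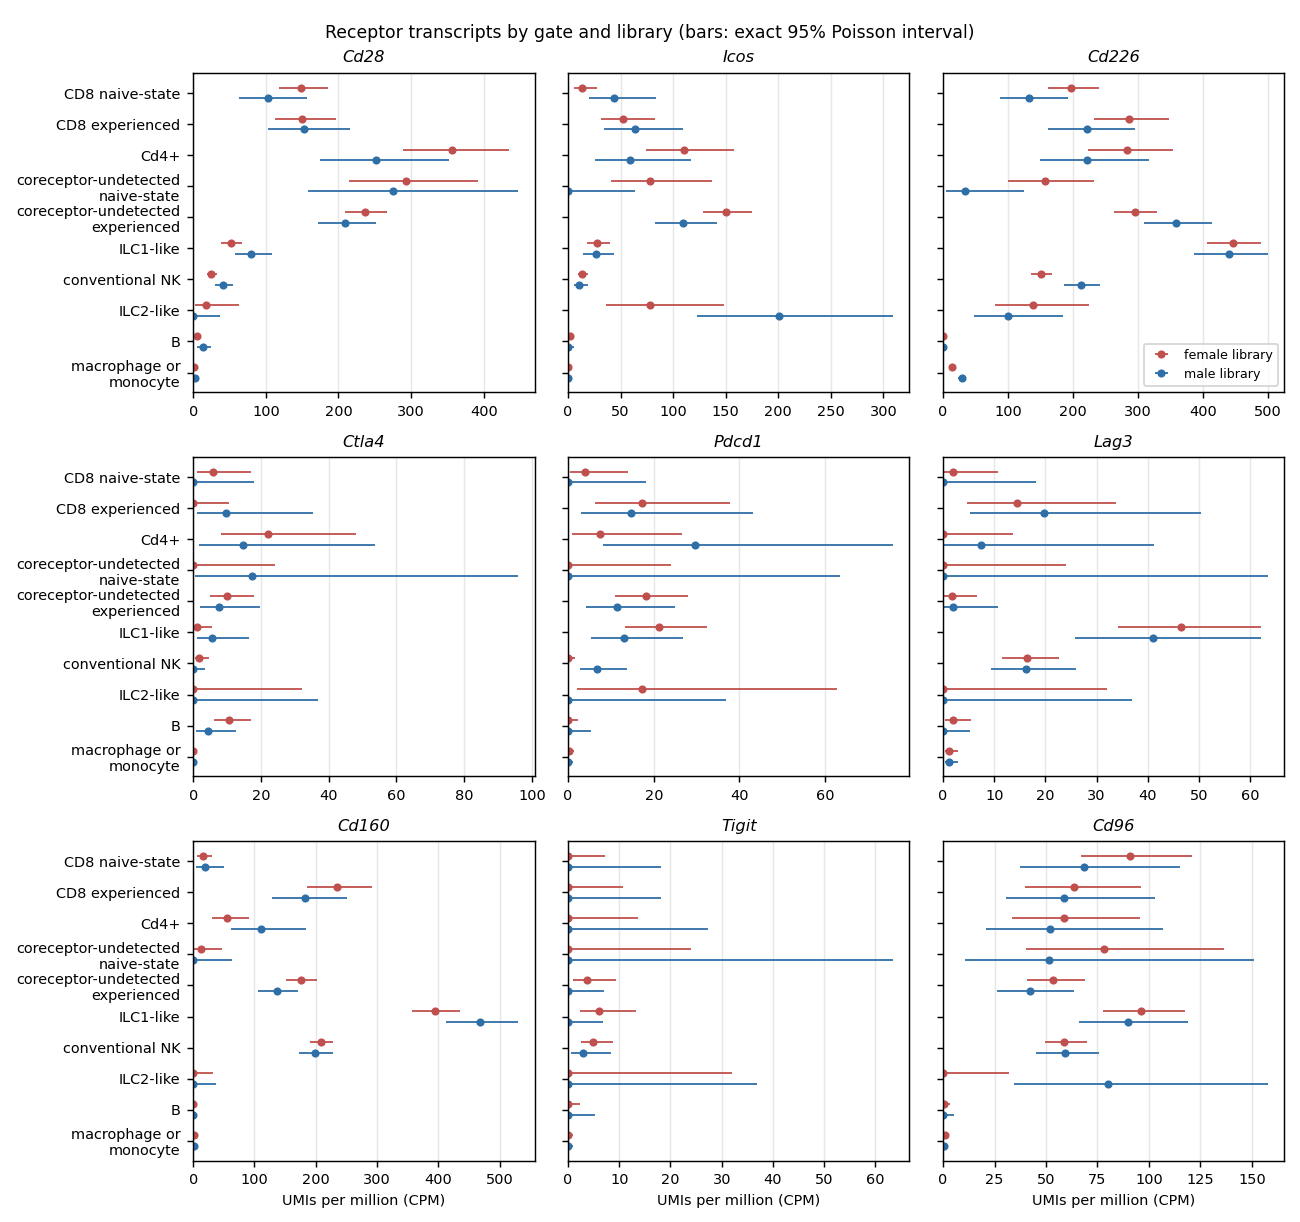
CPM of the 9 receptors (x axes, linear) in 8 lymphocyte gates, B cells and macrophages or monocytes (y axis), with points for the female and the male library and bars for exact 95% Poisson intervals. Cd226 at 446 and 441 CPM and Cd160 at 395 and 469 CPM are highest in ILC1-like cells among the gates drawn and at 0 in B cells, and Cd28 is highest in T cells.

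Cd28, the receptor that delivers the classical second signal to T cells, was at 357 CPM (289 to 435) in female and 252 CPM (174 to 352) in male Cd4+ T cells, where 68.9% and 60.0% of cells carried a UMI. Coreceptor-undetected naive-state T cells had 293 and 276 CPM, and the experienced ones 236 (208 to 267) and 209 (172 to 252). In CD8 T cells the level was lower, at 149 and 103 CPM in the naive-state and 150 and 152 CPM in the experienced gate. Gamma delta T cells held 18 and 10 Cd28 UMIs. All T-cell gates with at least 20 UMIs stood above the NK-type cells in both libraries, although the male CD8 naive-state and ILC1-like intervals overlapped. Of the NK-type cells, ILC1-like cells had 51.6 (38.4 to 67.9) and 80.3 CPM (58.1 to 108) and conventional NK cells 24.8 (18.8 to 32.2) and 41.0 (29.7 to 55.2). The step from ILC1-like to conventional NK cells was the one neighbouring pair in this order whose intervals stayed apart in both libraries. ILC2-like cells held 2 and 0 Cd28 UMIs.

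In B cells and in macrophages or monocytes, which should lack Cd28, 1.02% and 1.52% and 0.561% and 0.832% of cells carried a UMI. Their median depths were 2174.5 and 1779 UMIs in B cells and 3342.5 and 2960 in macrophages or monocytes, against 3943 and 4645 in conventional NK cells, of which 10.2% and 12.4% carried a Cd28 UMI. The share in NK-type cells was thus above that background.

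Icos, a relative of CD28 that is induced on activated T cells and present on ILC2s, was found at 78.1 CPM (35.7 to 148) in female and 200 CPM (122 to 309) in male ILC2-like cells, from 9 and 20 UMIs. This gate held T-cell markers summing to 1110 and 912 CPM, with Cd3d and Cd3e at 0 in both libraries, and regulatory T-cell markers summing to 529 and 731 CPM, with Foxp3 at 0, and their part in the Icos level was not tested. Coreceptor-undetected experienced T cells had 150 (128 to 175) and 109 CPM (82.7 to 142), with a UMI in 33.2% and 24.2% of cells. These transcripts were unevenly spread, since 1 female cell held 23 UMIs and the 5 richest male cells held 47.4% of their gate's Icos UMIs. Cd4+ T cells had 110 and 59.3 CPM, CD8 experienced T cells 52.0 and 63.9, and CD8 naive-state T cells 13.5 and 44.1. Coreceptor-undetected naive-state cells held 12 female UMIs, or 78.3 CPM, and none in 22 male cells, with an exact upper limit of 63.5 CPM. Gamma delta T cells held 8 and 5 UMIs. Among the gates with at least 20 UMIs over both libraries NK-type cells were lowest, with 27.3 and 26.1 CPM in ILC1-like and 13.3 and 10.5 CPM in conventional NK cells. The intervals of all neighbours in the Icos order overlapped in both libraries, and B cells held 3 and 0 UMIs.

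Cd226 encodes an activating adhesion receptor of T and NK cells, also called DNAM-1. In ILC1-like cells it reached 446 CPM (406 to 490) in females and 441 CPM (386 to 500) in males, and 81.4% and 82.1% of these cells carried a UMI. Conventional NK cells had 151 (136 to 168) and 213 CPM (186 to 242) and a UMI in 36.7% and 45.3% of cells. Coreceptor-undetected experienced cells had 295 and 358 CPM, CD8 experienced cells 286 and 221, Cd4+ cells 283 and 222, and CD8 naive-state cells 197 and 132. The male Cd4+ value fell to 27.7 CPM when 1 more Cd4 UMI was asked of the gate, which left 7 cells. Coreceptor-undetected naive-state cells had 157 and 34.4 CPM, the latter from 2 UMIs, and ILC2-like cells 139 and 100. The gamma delta T cells, left out of the order for their number, held 40 and 32 UMIs, or 393 (281 to 535) and 556 CPM (380 to 785), with intervals that overlapped those of ILC1-like cells in both libraries. No Cd226 UMI was found in 490 female or 263 male B cells, which by a floor of 3 counts allows 0.612% and 1.14% of cells with a UMI. Outside the lymphocytes the gene was seen in 16.0% of 75 female and 30.6% of 62 male dendritic cells, at 47.2 and 75.2 CPM, and in 3.64% and 5.41% of macrophages or monocytes.

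Among the inhibitory receptors Ctla4 and Pdcd1 were sparse. Ctla4, which removes the CD28 ligands and is constitutive in regulatory T cells, gave 7 UMIs in 5 of 9 female Foxp3+ T cells and 1 UMI in 1 of 3 male ones. Coreceptor-undetected experienced T cells held 11 and 4 UMIs, Cd4+ T cells 6 and 2, CD8 naive-state cells 3 and 0, CD8 experienced cells 0 and 2, coreceptor-undetected naive-state cells 0 and 1, gamma delta T cells 1 and 0, ILC1-like cells 1 and 3, and conventional NK cells 4 and 0. B cells held 17 and 3 UMIs, in 3.06% and 0.760% of cells, against 2.94% and 3.33% of coreceptor-undetected experienced and 4.92% and 6.67% of Cd4+ T cells. The Clopper-Pearson intervals of these T-cell shares overlapped that of B cells, and of the T-cell gates female Foxp3+ cells alone had an interval that lay wholly above that of B cells.

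Pdcd1 encodes PD-1, an inhibitory receptor that is raised on chronically stimulated T cells. ILC1-like cells had 21.3 (13.2 to 32.5) and 13.1 CPM (5.25 to 26.9), from 21 UMIs in 12 female and 7 UMIs in 6 male cells. Coreceptor-undetected experienced T cells were close, at 18.1 (11.1 to 27.9) and 11.5 CPM (4.22 to 25.0), and the intervals of these gates overlapped in both libraries. In conventional NK cells none of 471 female cells carried a Pdcd1 UMI, whereas 3 of 201 male cells held 7. CD8 experienced T cells had 17.3 (6.36 to 37.7) and 14.7 CPM (3.04 to 43.1) from 6 and 3 UMIs, and Cd4+ T cells 7.36 (0.891 to 26.6) and 29.6 CPM (8.07 to 75.9) from 2 and 4. With these gates below 20 UMIs and their intervals overlapping those of ILC1-like cells, no gate could be placed first for Pdcd1. CD8 naive-state cells held 2 and 0 UMIs, ILC2-like cells 2 and 0, gamma delta T cells 1 and 1, and coreceptor-undetected naive-state cells none. B cells held no Pdcd1 UMI, and 1 female macrophage or monocyte held the single UMI of that gate.

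Lag3, a CD4-like receptor for MHC class II that restrains T and NK cells, gave most of its UMIs in NK-type cells. ILC1-like cells had 46.6 (34.1 to 62.1) and 41.1 CPM (25.7 to 62.2) with a UMI in 16.7% and 17.9% of cells, and conventional NK cells 16.4 (11.6 to 22.6) and 16.2 CPM (9.44 to 25.9) with a UMI in 5.94% and 6.47%. These intervals were apart in females and met in males. CD8 experienced T cells, with 14.5 (4.69 to 33.7) and 19.7 CPM (5.36 to 50.3) from 5 and 4 UMIs, were not distinguishable from conventional NK cells. The other T cells held few Lag3 UMIs, 1 and 0 in CD8 naive-state, 0 and 1 in Cd4+ and 2 and 1 in coreceptor-undetected experienced cells, and none in the naive-state coreceptor-undetected, gamma delta and ILC2-like gates. The 9 female and 3 male plasmacytoid dendritic cells held 2 and 3 Lag3 UMIs. B cells carried a UMI in 0.408% and 0% of cells, and macrophages or monocytes in 0.467% and 0.416%.

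Cd160, a glycolipid-anchored receptor of cytotoxic lymphocytes, was at 395 CPM (357 to 436) in female and 469 CPM (412 to 530) in male ILC1-like cells, of which 67.9% and 73.7% carried a UMI. CD8 experienced T cells had 234 and 182 CPM and conventional NK cells 209 and 199 CPM, with intervals that overlapped in both libraries. The step from ILC1-like to CD8 experienced cells exceeded the intervals in both. Coreceptor-undetected experienced cells had 176 and 136 CPM and Cd4+ T cells 55.2 and 111, while the CD8 naive-state gate had 15.5 and 19.6. Coreceptor-undetected naive-state cells held 2 and 0 Cd160 UMIs, ILC2-like cells and B cells none, and gamma delta T cells 25 and 5. In macrophages or monocytes 0.654% and 0.520% of cells carried a UMI.

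Tigit, which binds CD155 in place of CD226, gave 24 UMIs over the 9 lymphocyte gates. Conventional NK cells held 11 and 3, ILC1-like cells 6 and 0, and female coreceptor-undetected experienced T cells 4, each in a different cell. All other T-cell gates and the ILC2-like gate were at 0. A count of 0 in 61 female Cd4+ T cells allows, by the same floor, 4.92% of cells with a UMI, and in 110 female CD8 naive-state cells 2.73%, so that low Tigit levels in T cells were not detectable at this depth.

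Cd96, the third receptor of the CD155 group, was found in all of the larger T-cell gates and in both NK-type gates. ILC1-like cells had 96.2 (77.8 to 118) and 89.6 CPM (66.1 to 119), CD8 naive-state T cells 90.9 and 68.6, CD8 experienced T cells 63.6 and 59.0, conventional NK cells 59.0 and 59.1, Cd4+ T cells 58.9 and 51.9, and coreceptor-undetected experienced T cells 53.4 and 42.2. Every neighbouring pair in this order overlapped in both libraries. Coreceptor-undetected naive-state cells held 12 and 3 UMIs, gamma delta T cells 9 and 3, and ILC2-like cells 0 and 8. B cells held 1 and 0.

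Promoter sequence is shown for Cd160 and Cd96. The promoters taken from the RefSeq promoter table (GRCm38.p6) covered 5 of the 9 receptors, namely Ctla4, Pdcd1, Cd160, Tigit and Cd96. Among these, Cd160 and Cd96 had the highest counts, at 1748 and 560 UMIs over the 8 gates and both libraries. Cd226 and Cd28, at 2186 and 938 UMIs, were not covered, so the choice does not follow the counts of all 9 receptors. Whether the table holds a promoter of Cd226 or Cd28 is not given here. Cd160 and Cd96 came first in ILC1-like cells in the order of mean CPM, on 641 and 143 UMIs over both libraries. For Cd96 the intervals overlapped those of CD8 naive-state cells in both libraries. Cd160 has 2 starts in that table. The stretch before the other one, chr3:96829402-96829601, was trimmed to 200 bases, holds an annotated exon and is not printed. Of the motifs below it holds the RUNX letters alone, at position -26 counted back from its last base and not from the start. Each printed sequence is the stretch before an annotated start, on the minus strand and written 5' to 3', with matches to the searched motifs in capitals. Annotated exon bases at the end next to the start were trimmed, which left 250 bases for Cd160 and 247 for Cd96.
Cd160, chr3:96814522-96814771: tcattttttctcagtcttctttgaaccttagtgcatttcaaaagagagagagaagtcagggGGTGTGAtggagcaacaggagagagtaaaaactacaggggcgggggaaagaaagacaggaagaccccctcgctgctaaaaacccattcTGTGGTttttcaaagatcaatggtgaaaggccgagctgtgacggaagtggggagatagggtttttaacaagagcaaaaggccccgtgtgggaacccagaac
Cd96, chr16:46120252-46120498: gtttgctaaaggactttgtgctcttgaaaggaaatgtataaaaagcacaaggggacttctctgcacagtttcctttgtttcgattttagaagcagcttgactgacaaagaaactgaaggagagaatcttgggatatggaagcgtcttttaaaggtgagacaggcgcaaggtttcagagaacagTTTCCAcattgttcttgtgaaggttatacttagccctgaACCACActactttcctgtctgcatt
Both strands were searched for the core bound by RUNX factors, spelled TGTGGT, for the site of T-box factors such as T-bet and Eomes, spelled GGTGTGA, for the site of GATA factors, spelled AGATAA, and for the NFAT core, spelled TGGAAA. No match overlapped another in these stretches. Positions are counted back from the last base of each trimmed stretch. In the Cd160 stretch the RUNX letters begin at position -101 and the T-box letters at position -189. In the Cd96 stretch the reverse complement of the RUNX core begins at position -25 and that of the NFAT core at position -64. Of 32851 promoters of 250 bases, 14.0% hold the RUNX letters, 3.33% the T-box letters, 9.99% the GATA letters and 18.6% the NFAT letters, and a match describes the sequence and not a bound site.

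The receptors with enough UMIs differed in the same direction between the NK-type gates. Within each library, 6 receptors had at least 20 UMIs over both gates in both libraries, and all 6 were higher in ILC1-like than in conventional NK cells with intervals above 1. The share of all genes by this interval rule alone is not given here. Cd226 was 2.95-fold higher (2.56 to 3.41) in females and 2.07-fold (1.72 to 2.50) in males. Lag3 was 2.84-fold (1.80 to 4.50) and 2.53-fold (1.29 to 5.08) higher, and Icos 2.05-fold (1.18 to 3.58) and 2.49-fold (1.05 to 6.07). These 3 of 6 passed 2-fold in both libraries, against 1.03% of 7214 genes that were higher and 1.1% that were lower by the same rule. The thresholds of both gates were set after receptor values had been seen, so these shares give a scale and no test. Cd160 was 1.89-fold (1.65 to 2.17) and 2.35-fold (1.95 to 2.84) higher, Cd28 2.08-fold (1.39 to 3.09) and 1.96-fold (1.25 to 3.06), and Cd96 1.63-fold (1.24 to 2.14) and 1.52-fold (1.02 to 2.25). The median ratio of these 6 receptors was 2.07 in females and 2.21 in males, against 0.996 and 1.01 over all 7214 genes.

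The Pdcd1 counts were smaller and uneven. With 21 UMIs in female ILC1-like cells and none in female conventional NK cells, Pdcd1 was at least 11.9-fold higher by the exact limit. Against a floor of 3 UMIs the female ratio was 16.0, whereas 7 UMIs in each male gate gave a ratio of 1.96 (0.586 to 6.54). The ILC1-like gate also held more of the T-cell marker list than conventional NK cells, with summed levels of 1390 and 1333 CPM against 838 and 932, while 5 of its 6 genes were detected and Cd3e was at 0 in both gates by construction. Macrophage markers summed to 154 and 161 CPM against 120 and 118, with 8 of 8 detected in both gates. The part of either list in the ratios was not tested. Leaving out the cells with hemoglobin kept all 12 ratios within their intervals.

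Experienced and naive-state T cells were set apart above all by Cd160. In CD8 T cells it was 15.1-fold higher (7.33 to 36.2) in female and 9.28-fold higher (3.33 to 35.8) in male experienced cells, from 81 against 8 and 37 against 4 UMIs. Cd160 was the single receptor of 5 measured that passed 2-fold in both libraries, against 4.14% of 2463 genes that were higher and 1.46% that were lower. Since the contrast was set after receptor values had been seen, these shares give a scale and no test. Icos was 3.84-fold higher (1.53 to 10.9) in females and 1.45-fold (0.573 to 3.84) in males, and Cd226 1.45-fold (1.09 to 1.93) and 1.67-fold (1.01 to 2.80). Cd28, at ratios of 1.01 (0.696 to 1.45) and 1.48 (0.824 to 2.71), and Cd96, at 0.700 (0.402 to 1.18) and 0.860 (0.363 to 2.00), had intervals that included 1.

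Coreceptor-undetected T cells gave a like comparison. Cd160 was 13.5-fold higher (3.68 to 112) in female experienced cells. In males 71 UMIs against 0 made it at least 2.09-fold higher by the exact limit, and 2.63-fold against a floor of 3 UMIs. It was again the 1 of 5 receptors past 2-fold in both, against 3.4% of 3796 genes that were higher and 0.711% that were lower. As in CD8 T cells, the contrast was set after receptor values had been seen, and the shares give no test. Icos was 1.92-fold higher (1.07 to 3.79) in females. In males, where the naive-state gate held none, it was at least 1.66-fold higher by the exact limit and 2.11-fold against the same floor. Cd226 was 1.88-fold (1.24 to 2.98) and 10.4-fold (2.84 to 86.6) higher, the male value resting on 2 naive-state UMIs in 1 cell. Cd28 had ratios of 0.805 (0.585 to 1.13) and 0.758 (0.447 to 1.37).

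Coreceptor-undetected experienced T cells and ILC1-like cells, both rich in these receptors, differed in which ones they carried. Cd28 was 4.57-fold (3.38 to 6.30) and 2.60-fold (1.81 to 3.80) higher in the T cells, and Icos 5.49-fold (3.64 to 8.59) and 4.18-fold (2.30 to 8.12). Cd160 stood at 0.445 (0.372 to 0.529) and 0.290 (0.220 to 0.379) of the ILC1-like level, and Lag3 at 0.0389 (0.00457 to 0.149) and 0.0467 (0.00113 to 0.289), from 2 and 1 UMIs in the T cells. These 4 of 6 receptors passed 2-fold in both libraries, 2 in each direction, against 1.67% of 5992 genes that were higher and 2.72% that were lower. The contrast was set after receptor values had been seen, so these shares give a scale and no test. Cd226 at 0.661 (0.571 to 0.764) and 0.814 (0.668 to 0.990), and Cd96 at 0.555 (0.394 to 0.776) and 0.471 (0.271 to 0.795), were lower in the T cells with smaller differences. Pdcd1 was at 0.851 (0.438 to 1.65) in females and, from 6 and 7 UMIs, at 0.880 (0.244 to 3.06) in males.

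**Figure D2:**
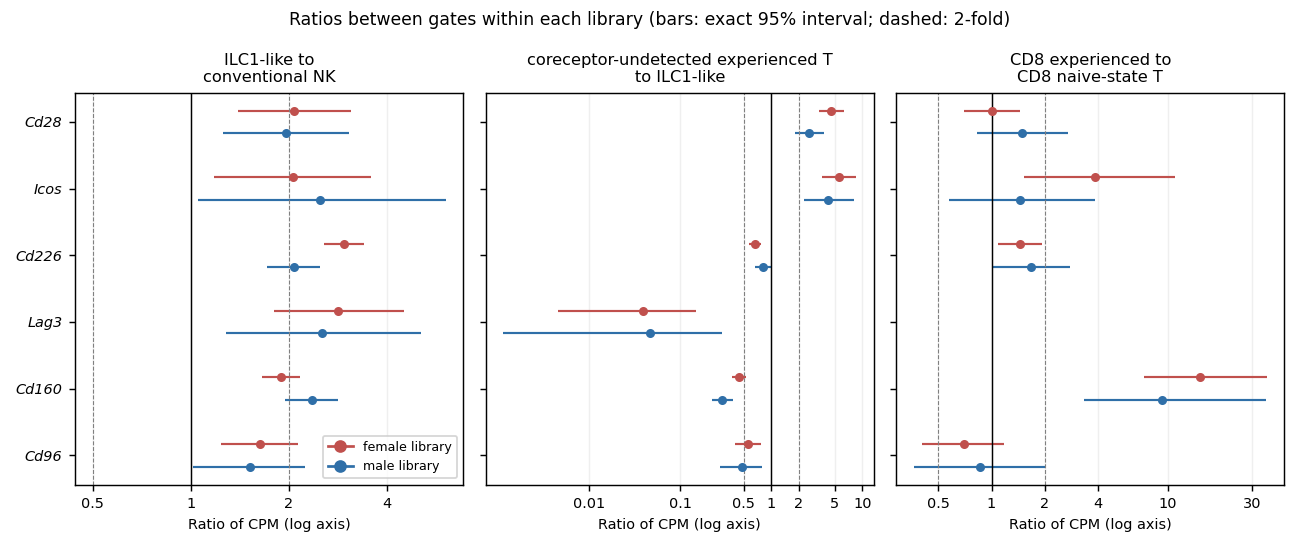
Ratios of CPM between gates (x axes, logarithmic) for 6 receptors (y axis) in the female and the male library, with exact 95% intervals and dashed lines at 2-fold, and Lag3 is absent from the right panel, where it had under 20 UMIs. All ILC1-like to conventional NK ratios lie above 1, and Cd28 and Icos lie on the other side of 1 from Lag3 and Cd160 when experienced T cells are set against ILC1-like cells.

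Single cells often carried more than 1 receptor. At least 2 of the 9 were detected in 79.5% of female and 84.2% of male ILC1-like cells, in 68.8% and 65.8% of CD8 experienced, 65.5% and 59.2% of coreceptor-undetected experienced and 55.7% and 53.3% of Cd4+ T cells. The share was 36.7% and 40.8% in conventional NK cells, 5.00% and 16.1% in ILC2-like cells and 1.02% and 0.380% in B cells. Naive-state gates had 46.4% and 44.2% in CD8 and 23.5% and 13.6% in coreceptor-undetected T cells. The 21 and 15 gamma delta T cells had 71.4% and 66.7%, and 17.3% and 17.1% when reduced to 1000 UMIs. None was detected in 2.33% and 1.05% of ILC1-like cells, against 35.5% and 31.3% of conventional NK cells. Cells with at least 1000 UMIs were then reduced to 1000 UMIs by repeated random draws. The mean share with at least 2 receptors was 20.3% and 21.4% in ILC1-like, 17.5% and 15.1% in coreceptor-undetected experienced and 5.54% and 6.66% in conventional NK cells. At this equal depth CD8 experienced T cells, at 14.4% and 13.1%, stood below the coreceptor-undetected experienced ones in both libraries, and Cd4+ T cells, at 14.3% and 15.5%, below them in females and above in males, so the order among T-cell gates changed with depth while ILC1-like cells stayed above all of them.

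**Figure D3:**
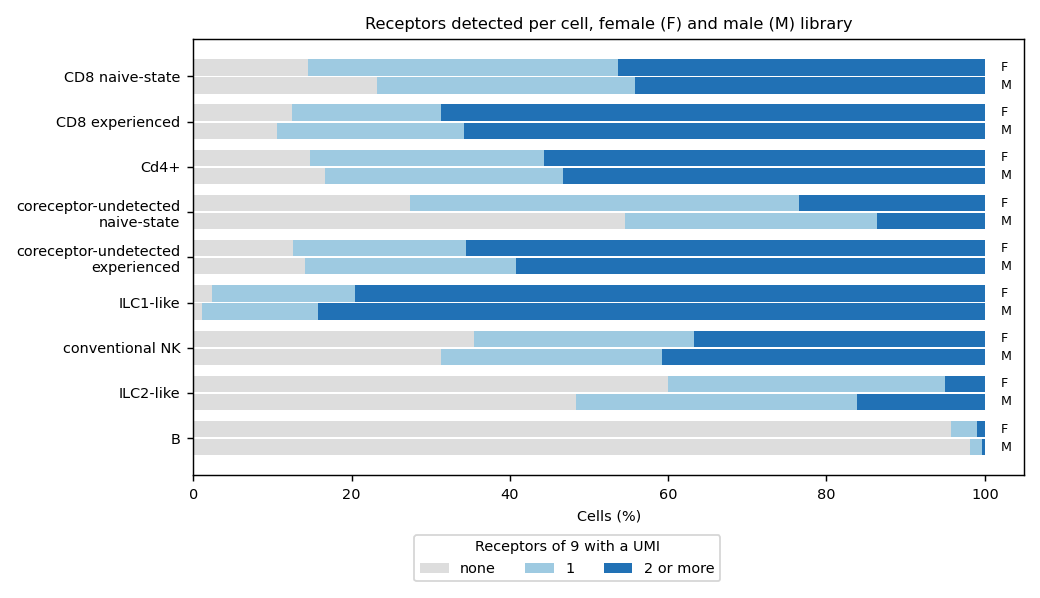
Percentage of cells (x axis) in which none, 1 or at least 2 of the 9 receptors had a UMI, for 8 lymphocyte gates and B cells (y axis), female above male. Cells without a receptor make up 2.33% and 1.05% of ILC1-like and 35.5% and 31.3% of conventional NK cells.

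Cd226 and Cd160 were found together in 121 of 215 female and 58 of 95 male ILC1-like cells, where the product of their shares gives 119 and 57.5 cells. In conventional NK cells they were found together in 101 of 471 and 49 of 201 cells, where the product gives 68.0 and 33.5. Lag3 and Cd160 met in 20 and 10 conventional NK cells, where the product gives 11 and 4.79. Detection of any pair rises with the depth of a cell, and its part in these counts was not tested.

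Over the 16 points given by 8 gates and 2 libraries, the genes whose levels ran most like a receptor's were listed by Pearson correlation of log2(CPM + 10), as a description without a test, since points of 1 library share depth and free RNA. Cd160 was most like Il2rb (r = 0.961), the beta chain of the interleukin-2 and interleukin-15 receptors, and Slamf7 (0.957). Cd226 was most like Ptpn22 (0.919) and Adcy7 (0.911), Cd28 most like Ifi27l2a (0.928) and Aopep (0.899), and Lag3 most like Rnf43 (0.926) and Lilr4b (0.901). Pdcd1 was followed by Tnfaip8 (0.905) and Chst2 (0.870), Cd96 by Dock8 (0.873) and Kif21b (0.863), and Icos by Fabp5 (0.842) and Abhd8 (0.830). Ctla4, with Phf11c (0.832) and Crmp1 (0.779), and Tigit, with Spaca9 (0.842) and Pvrig (0.826), rested on 37 and 24 UMIs.

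Among the receptors themselves Lag3 and Cd160 (0.817) and Cd226 and Cd160 (0.795) ran most alike. Of the 3 neighbours on chromosome 1, Cd28 and Ctla4 had r = 0.657, Icos and Ctla4 -0.017 and Cd28 and Icos -0.046 over the same points.

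The question the libraries pose is whether females and males differ. Of the 72 pairs of a receptor and a gate, 36 had at least 20 UMIs, and in 28 of them the interval of the female to male ratio included 1. Cd226 in ILC1-like cells was among these, at 446 and 441 CPM, as were Lag3 and Cd96 in both NK-type gates. The share of all genes whose interval included 1 is not given here. Only 2 pairs of 36 passed 2-fold with an interval that left out 1, where between 2.46% and 5.49% of all genes did so by gate, and both pairs rest on few UMIs. Cd226 was 4.54-fold higher (1.13 to 39.7) in female coreceptor-undetected naive-state T cells, from 24 against 2 UMIs, in a gate where the median of all genes was shifted by 0.10 on the log2 scale. With 1 more marker UMI asked of the gate it was 2.65-fold (0.600 to 24.2) from 13 against 2 UMIs, and at a mitochondrial ceiling of 5% the gate held 17 against 0, with an exact lower limit of 1.73, both under the minimum of 20, so no call could be made. Icos stood at 0.390 (0.156 to 0.895) in ILC2-like cells, from 9 female and 20 male UMIs, and passed under both of these settings. Without the cells that held over 1 hemoglobin UMI it was 0.395 (0.148 to 0.966), from 8 and 17 UMIs.

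By the same rule 3.65% of genes passed in CD8 naive-state T cells, where 0 of 3 receptors did, and 4.42% in CD8 experienced T cells, where 0 of 5 did. In Cd4+ T cells 5.49% of genes and 0 of 5 receptors passed, and in coreceptor-undetected naive-state T cells 5.2% of genes and 1 of 2 receptors. In coreceptor-undetected experienced T cells 3.03% of genes and 0 of 6 receptors passed, in ILC1-like cells 3.23% and 0 of 7, in conventional NK cells 2.46% and 0 of 6, and in ILC2-like cells 4.28% and 1 of 2. At a mitochondrial ceiling of 5% Cd28 in CD8 naive-state T cells moved from 1.45 to 2.42 (1.12 to 5.98) and Icos in Cd4+ T cells from 1.86 to 3.08 (1.04 to 12.4), and both then passed. With so few receptors in a gate, 1 call says little against these shares.

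A further 6 intervals left out 1 at differences under 2-fold. The share of all genes with such intervals is not given here, so these 6 cannot be set against it. In conventional NK cells Cd226 stood at 0.711 (0.599 to 0.846) and Cd28 at 0.606 (0.400 to 0.923) of the male level. In ILC1-like cells Cd28 stood at 0.643 (0.420 to 0.989) and Cd160 at 0.843 (0.717 to 0.991). In coreceptor-undetected experienced T cells Cd226 stood at 0.823 (0.685 to 0.990), while Icos was 1.37-fold higher (1.01 to 1.89) in females. For Icos 1 female cell held 23 of 166 UMIs and 1 male cell 13 of 57, and their part in the ratio was not tested.

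**Figure D4:**
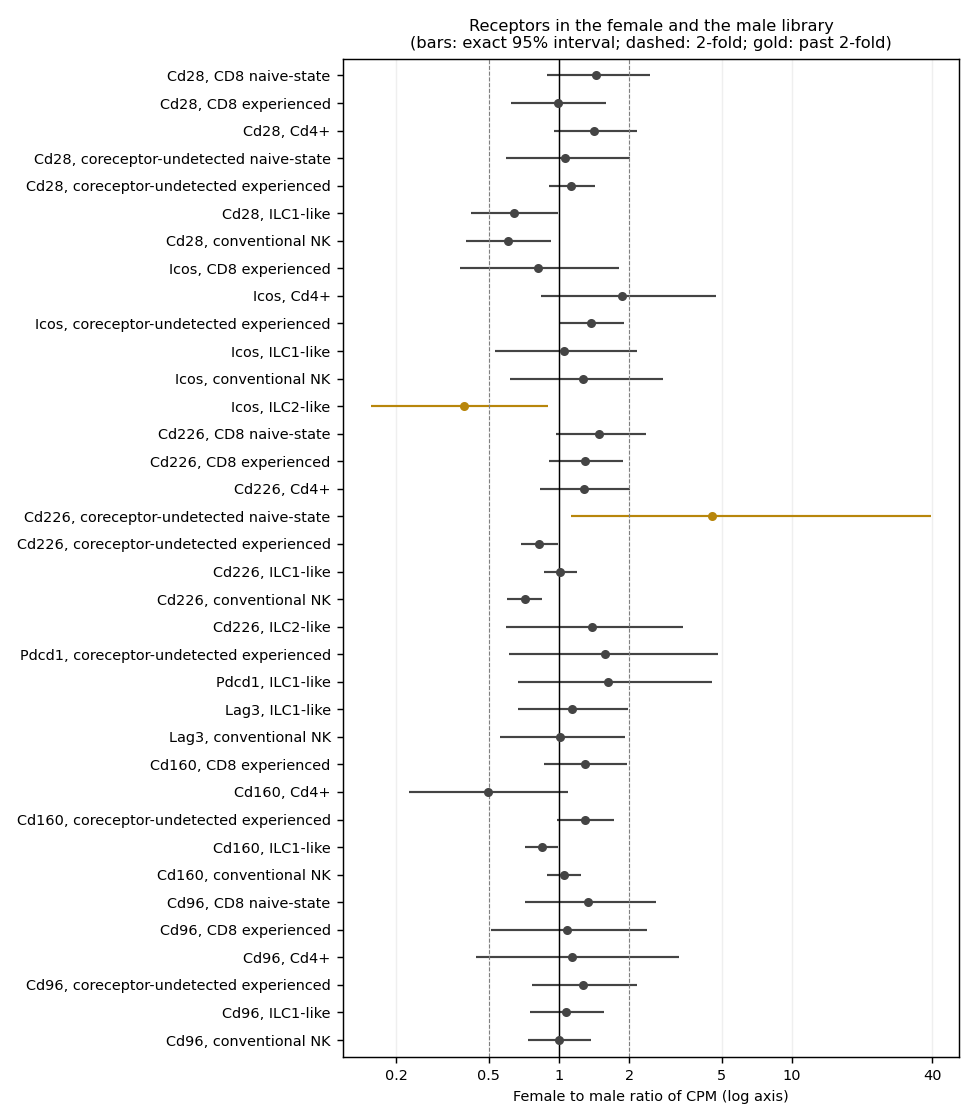
Female to male ratio of CPM (x axis, logarithmic) for the 36 pairs of receptor and gate with at least 20 UMIs (y axis), with exact 95% intervals. In 28 of 36 pairs the bar crosses 1, and the 2 pairs past 2-fold, in gold, are Icos in ILC2-like and Cd226 in coreceptor-undetected naive-state T cells.

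The partners of these receptors were followed in a list of 13 ligands, 15 other receptors and 11 signalling molecules. Between ILC1-like and conventional NK cells 0 of 4 ligands with enough UMIs passed 2-fold in both libraries, where 1.03% of all genes were higher and 1.1% lower. Of 10 other receptors 1 was higher, Cd200r1, which also served to gate these cells, and 2 were lower, Klrg1 at 8.10 and 1.87 CPM against 73.2 and 88.6, and Crtam at 15.2 and 13.1 against 51.4 and 49.6. Of 11 signalling molecules none was higher and 2 were lower, the kinase Fyn and the adaptor Sh2d1a, also known as SAP, the latter at 25.3 and 22.4 against 168 and 190 CPM.

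Tox, a nuclear factor needed for NK and ILC development, was at 141 and 144 CPM in ILC1-like and 90.4 and 74.3 in conventional NK cells. Lat, the scaffold of the T-cell receptor signal, was at 291 in both female and male coreceptor-undetected experienced T cells, against 69.8 and 84.0 in ILC1-like cells. The receptor Cd7 was at 1537 and 1452 CPM in ILC1-like and 907 and 792 in conventional NK cells, and Cd244a, also called 2B4, at 211 and 213 against 209 and 208.

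Of the 13 ligands, 9 reached 20 UMIs in B cells or a gate outside the lymphocytes and 5 in a T, NK-type or ILC2-like gate. Cd86, which binds CD28 and CTLA-4, was at 79.8 and 92.7 CPM in macrophages or monocytes and at 49.6 and 41.8 in dendritic cells, and Cd80, the other such ligand, at 12.3 and 10.1 CPM in macrophages or monocytes. Icosl, the ligand of ICOS, was at 34.9 and 52.9 CPM in B cells, 43.7 and 43.6 in macrophages or monocytes and 29.8 and 55.7 in dendritic cells. Lgals3, encoding galectin-3, which is reported to bind LAG-3, was at 1085 and 1073 CPM in macrophages or monocytes and 901 and 896 in dendritic cells. Nectin1, a ligand of CD96, was at 34.8 and 41.8 CPM in dendritic cells.

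Some ligands were found on T, NK-type or B cells. Pdcd1lg2, encoding PD-L2, was at 52.6 and 52.3 CPM in ILC1-like and 20.0 and 31.5 in conventional NK cells, while B cells had 18.7 and 22.9 and macrophages or monocytes held 2 and 0 UMIs. Cd274, encoding PD-L1, was at 23.7 and 25.7 CPM in B cells. Pvr, the shared ligand of CD226, TIGIT and CD96, was at 29.9 and 34.5 CPM in coreceptor-undetected experienced T cells and 8.35 and 6.43 in macrophages or monocytes. Clec4g, another LAG-3 ligand, gave 25 and 25 UMIs in the 19 female and 20 male endothelial cells that the sort still held. Nectin2, Nectin3, Tnfrsf14 and Fgl1 reached 20 UMIs in no gate.

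Between the libraries, 8 of 149 pairs of a partner gene and a gate passed 2-fold, 6 of them higher in females, beside the 2.46% to 5.49% of all genes that did so by gate. In coreceptor-undetected experienced T cells, the costimulatory receptor Tnfrsf9, or 4-1BB, was 4.25-fold higher (1.52 to 16.4) in females, from 36 against 4 UMIs, and Pdcd1lg2 2.12-fold (1.06 to 4.73). In Cd4+ T cells Cd27 was 2.33-fold (1.16 to 5.18), Slamf6 2.02-fold (1.09 to 4.05) and Ptpn6 3.05-fold (1.36 to 8.04) higher in females. In CD8 experienced T cells Pik3r1 was 3.37-fold higher (1.76 to 7.09) in females. Leading genes of these gates differed between the libraries, with Pclaf and Top2a in male Cd4+ and Pclaf and Cenpw in female CD8 experienced cells. Their part in these ratios was not tested. Cd274 in ILC1-like cells, at 0.325 (0.126 to 0.794), and Klrg1 in CD8 experienced T cells, at 0.340 (0.146 to 0.753), were lower in females.

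**Figure D5:**
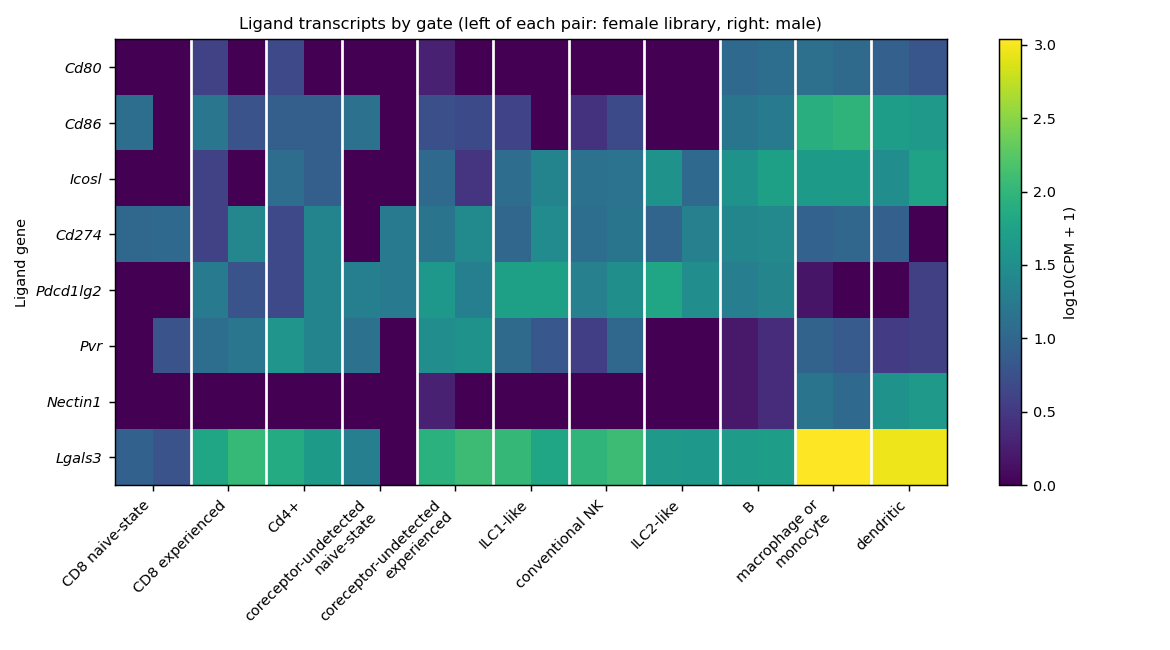
Levels of 8 ligand genes (rows) in 8 lymphocyte gates, B cells, macrophages or monocytes and dendritic cells (columns, female left and male right of each pair), coloured by log10(CPM + 1). Lgals3 and Cd86 are brightest in macrophages or monocytes and dendritic cells, and Pdcd1lg2 is at 52.6 and 52.3 CPM in ILC1-like cells against 18.7 and 22.9 in B cells and 2 and 0 UMIs in macrophages or monocytes.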

How the data were processed

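The deposited files were raw UMI counts per gene and cell barcode for 1 female and 1 male library, made by the authors with Cell Ranger 4.0.0 on mm10; the methods also name DropletUtils 1.4.3 and Seurat 3.1.0. The receptors and the lists of markers, ligands and partners were chosen with earlier results of these data known. Barcodes with at least 200 genes and at most 15% mitochondrial UMIs were kept, since the ceiling of 1.2% that the study describes left 327 and 359 barcodes here. The study retained far more cells after that filter, so the ceiling as read here cannot be the one it applied, and what was meant is not known. Doublets were scored with Scrublet (scanpy 1.11.5) and the highest scores removed at 0.8% per 1000 cells (124 female and 55 male cells), because the automatic threshold marked 10 of 6648 barcodes.

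T cells needed 1 Cd3e and 4 Cd3 UMIs, at most 3 Tyrobp and at most 1 Ncr1 UMI. CD8 T cells needed 2 Cd8a or Cd8b1 UMIs, Cd4+ T cells 1 Cd4 UMI and none of CD8, and gamma delta T cells 2 Trdc UMIs. Naive or experienced state, and ILC1-like or conventional NK, followed the larger sum of 2 marker lists. NK-type cells needed 4 UMIs of Ncr1, Klrb1c and Klre1, 4 of Tyrobp and no Cd3e, and ILC2-like cells 4 UMIs of an ILC2 list and no Cd3e. Cells with markers of B cells, macrophages, mast, endothelial or adrenal cells were left out. These thresholds, the division of coreceptor-undetected T cells and every contrast between gates other than ILC1-like to conventional NK were set after receptor values had been seen. The use of an expected rather than drawn share at 1000 UMIs for single receptors was also set then. Shares with at least 2 receptors at 1000 UMIs were means over random draws. Cells under 1000 UMIs were left out of both.

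CPM, shares and ratios were computed from summed counts (python 3.11.15, scipy 1.17.1), with exact Poisson, Clopper-Pearson and conditional binomial 95% intervals. A ratio needed 20 UMIs over both sides, and a gene was past 2-fold if its interval also left out 1; in contrasts between gates this was asked in both libraries. A count of 0 was given a floor of 3 UMIs. No p-value was computed. Named genes were all 9 receptors, the listed partners with at least 20 UMIs in a gate, and the 2 genes most like each receptor among genes with at least 50 UMIs, gate markers left out. Alternatives were mitochondrial ceilings of 5% and 1.2%, no doublet removal, 1 more marker UMI per gate, cells with at least 1000 UMIs, shares at 1000 UMIs, a pseudocount of 50, a minimum of 200 UMIs and, added after seeing the data, cells with at most 1 hemoglobin UMI. The ratio, its interval and the 2-fold call were tested on simulated counts with the means and totals of the conventional NK gate. The other steps were not tested in this way. The simulated counts were independent, so that test does not cover an uneven spread of UMIs over cells.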

Additional observations from a re-analysis of the deposited data

Results flagged for a closer look

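The female to male ratio of Icos pointed in different directions in different gates, at 1.37 in coreceptor-undetected experienced T cells and 0.390 in ILC2-like cells, with intervals on either side of 1. The ratio of Cd226 did so too, at 4.54 in coreceptor-undetected naive-state T cells against 0.823 in the experienced ones and 0.711 in conventional NK cells. The difference between the gates was not tested in either case, and sex and library cannot be told apart. Of the Icos UMIs in coreceptor-undetected experienced T cells, 1 female cell held 23 of 166 and 1 male cell 13 of 57.

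Cells with T-cell and NK markers together, 48 female and 19 male, were in none of the comparisons. They had 304 and 494 CPM of Cd226 and 457 and 512 CPM of Cd160. ILC1-like cells, for comparison, had 446 and 441 CPM of Cd226 and 395 and 469 CPM of Cd160.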

How the results depend on the processing

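Of 53 receptor levels, 52 stayed within their intervals at a mitochondrial ceiling of 5% and with 1 more marker UMI per gate, and 53 without doublet removal, with at least 1000 UMIs per cell and without cells holding hemoglobin, an alternative added after seeing the data. All 12 ILC1-like to conventional NK ratios stayed within their intervals under these settings, as did 35 of 35 female to male ratios at 5% and 32 of 35 with 1 more marker UMI, where 1 of 31 pairs passed 2-fold and the Cd226 call in coreceptor-undetected naive-state T cells was lost. At 5% it was lost through the minimum of 20 UMIs, with 17 against 0 UMIs and an exact lower limit of 1.73, and Cd28 in CD8 naive-state T cells, at 2.42, and Icos in Cd4+ T cells, at 3.08, passed. All 53 shares of cells moved when cells were reduced to 1000 UMIs. Of the 18 genes most like a receptor, 11 were kept at a pseudocount of 50 CPM and 11 at a minimum of 200 UMIs.

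The ceiling of 1.2% left 1 female and 0 male ILC1-like cells and 8 and 5 conventional NK cells, too few to read a level from, and it cannot be the filter the study applied. There 5 of 42 levels stayed within their intervals. Cd28 in female Cd4+ T cells came to 2096 CPM from 1 cell, Icos in male ILC2-like cells to 0, and in the female ILC1-like cell Cd226 to 731 and Cd96 to 244 CPM, and Pdcd1, Lag3 and Cd160 to 0. The female ILC1-like to conventional NK ratio became 0 for Cd28, Icos and Cd160 and 3.46 for Cd226, the Icos ratio of experienced to naive-state coreceptor-undetected T cells 0.139 in females, and the Cd226 female to male ratio in conventional NK cells 1.30, and 0 of 0 pairs passed 2-fold. No paired analysis was possible because each sex has 1 library. Ctla4 and Tigit had under 20 UMIs in each lymphocyte gate, so that no ratio could be formed for them.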

Other observations

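Several receptors of the same kind had levels in cells other than T and NK cells. Havcr2, encoding TIM-3, was at 67.5 and 60.9 CPM in female and male macrophages or monocytes and at 34.8 and 30.6 in dendritic cells. Vsir, encoding VISTA, was at 300 and 291 CPM in macrophages or monocytes and at 400 and 454 in neutrophils. Btla, a further partner of the herpesvirus entry mediator, was at 126 and 147 CPM in B cells and 54.6 and 50.1 in dendritic cells. Klrg1, an inhibitory receptor for cadherins, was at 295 and 311 CPM in ILC2-like cells, against 73.2 and 88.6 in conventional NK cells. Tnfrsf18, or GITR, was at 208 and 270 CPM in ILC2-like and 168 and 205 in ILC1-like cells.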
